A study of Mus musculus with 13 samples.

Results

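The Peg10-Sgce region of mouse chromosome 6 was followed as 9 genes chosen by symbol (Calcr, Tfpi2, Casd1, Sgce, Peg10, Ppp1r9a, Pon3, Pon2 and Asb4), all found in a table of 23217 genes. The values come from poly(A)-selected RNA of 13 whole mouse embryos at embryonic day 9.5, on a C57BL/6J background. The labels call 3 of them xHet and 10 xHomo and give no litter, sex or batch. As the study is known, these names refer to fathers heterozygous or homozygous for a mutation of Tet1, a 5-methylcytosine dioxygenase. The allele is not given in the labels, and nothing in them sets the groups apart other than the name. The numbered embryos are taken as separate samples, so a p-value measures only the spread between them.

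Imprinted genes are read from 1 parental copy because DNA methylation laid down in the germ line marks the other. In this region the mark is known to lie over the shared start of Peg10 and Sgce, which are methylated and silent on the maternal copy and read from the paternal one. Several neighbours (Ppp1r9a, Pon3, Pon2, Asb4 and Tfpi2) are known for a preference for the maternal copy, for most of them mainly in extraembryonic tissue, and Calcr for such a preference in brain. The table gives 1 value per gene for both copies together, so which copy was read was not measured.

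Levels are FPKM, fragments scaled to transcript length and to the mapped total, so abundant RNAs can shift all others between embryos. They hold no read count. The read depth is therefore unknown. Summed FPKM per embryo ran from 500126 to 662936. The library of xHomo embryo 3 stood apart: 10.2% of 12755 tested genes differed there by 1 log2 unit or more from their xHet mean, against 1.45% to 4.56% in the other xHomo embryos. Group differences of the domain genes that it moved by over 1.5 times are given with and without it. Markers of the embryo proper (neural, heart and somite genes and embryonic globins) were present in every embryo. Of 11 trophoblast markers 5 stayed under 1 FPKM in every embryo, with Tpbpa listed at 0 throughout, and their summed level was 16.8 to 20.3 FPKM (xHet) and 16.9 to 27.0 FPKM (xHomo, from 17.4 without embryo 3). For 5 decidual markers, with Prl8a2 under 1 FPKM everywhere, the sums were 68.9 to 83.0 and 48.7 to 77.8 FPKM (from 55.7 without embryo 3). Most of that sum was Hsd11b2, with means of 48.3 FPKM (xHet) and 34.7 FPKM (xHomo). Of the 4 tested decidual markers it was the 1 with a log2 difference below 0, and 3 were above 0. Whole embryos were sequenced, so fewer cells of a type and less RNA per cell cannot be told apart. Positions are from the deposited table on the mm9 build, and strands from the GENCODE annotation.

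Peg10 and Sgce lie head to head on opposite strands at the centre of the region, with 101 bases between them. Peg10, a gene derived from a retrotransposon and needed for the placenta, lies on the plus strand (chromosome 6, 4697306 to 4710516). Sgce, which encodes the membrane protein epsilon-sarcoglycan, lies on the minus strand (4624350 to 4697204). Both were abundant in the xHet embryos, Peg10 at 57.8 to 99.8 FPKM and Sgce at 23.2 to 30.4 FPKM. In 5 xHomo embryos, a low set, both were under every xHet embryo at 4.19 FPKM or less, and the other 5 had at least 13.7 FPKM of Sgce and 66.8 FPKM of Peg10.

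In xHomo embryos 2, 4, 5 and 6 Peg10 was 114, 119, 127 and 126 FPKM, each above the highest xHet embryo. Sgce was 28.7, 31.1, 31.5 and 28.1 FPKM there, around the upper end of the xHet range. In xHomo embryo 3 Peg10 was 66.8 FPKM, inside the xHet range, and Sgce 13.7 FPKM, below it.

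In the low set the loss went further for Peg10 than for Sgce. Relative to the xHet mean of 85.7 ± 24.2 FPKM (SD, n = 3), Peg10 kept 0.035%, 0.012%, 0.058% and 0.012% in xHomo embryos 1, 7, 8 and 9. Sgce kept 4.84%, 2.85%, 3.07% and 4.55% of its xHet mean of 27.0 ± 3.58 FPKM (SD, n = 3) in the same 4 embryos. At 0.01 to 0.05 FPKM, with values deposited to 2 decimals, the Peg10 residue is close to the smallest value the table can show. The Sgce residue of 0.77 to 1.31 FPKM is well above that limit.

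The low set was not uniform. In xHomo embryo 10 Peg10 was 4.19 FPKM, or 4.89% of the xHet mean, and Sgce 3.33 FPKM, or 12.3%. Both were the highest values of the low set and far under every other embryo. The ratio of Sgce to Peg10 levels was 0.795 there, against 0.276 to 0.402 in xHet embryos and 0.205 to 0.262 in xHomo embryos 2 to 6. In the other 4 embryos of the low set the ratio was 16.6 or more, a figure that rests on Peg10 values near the limit of the table.

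**Figure D1:**
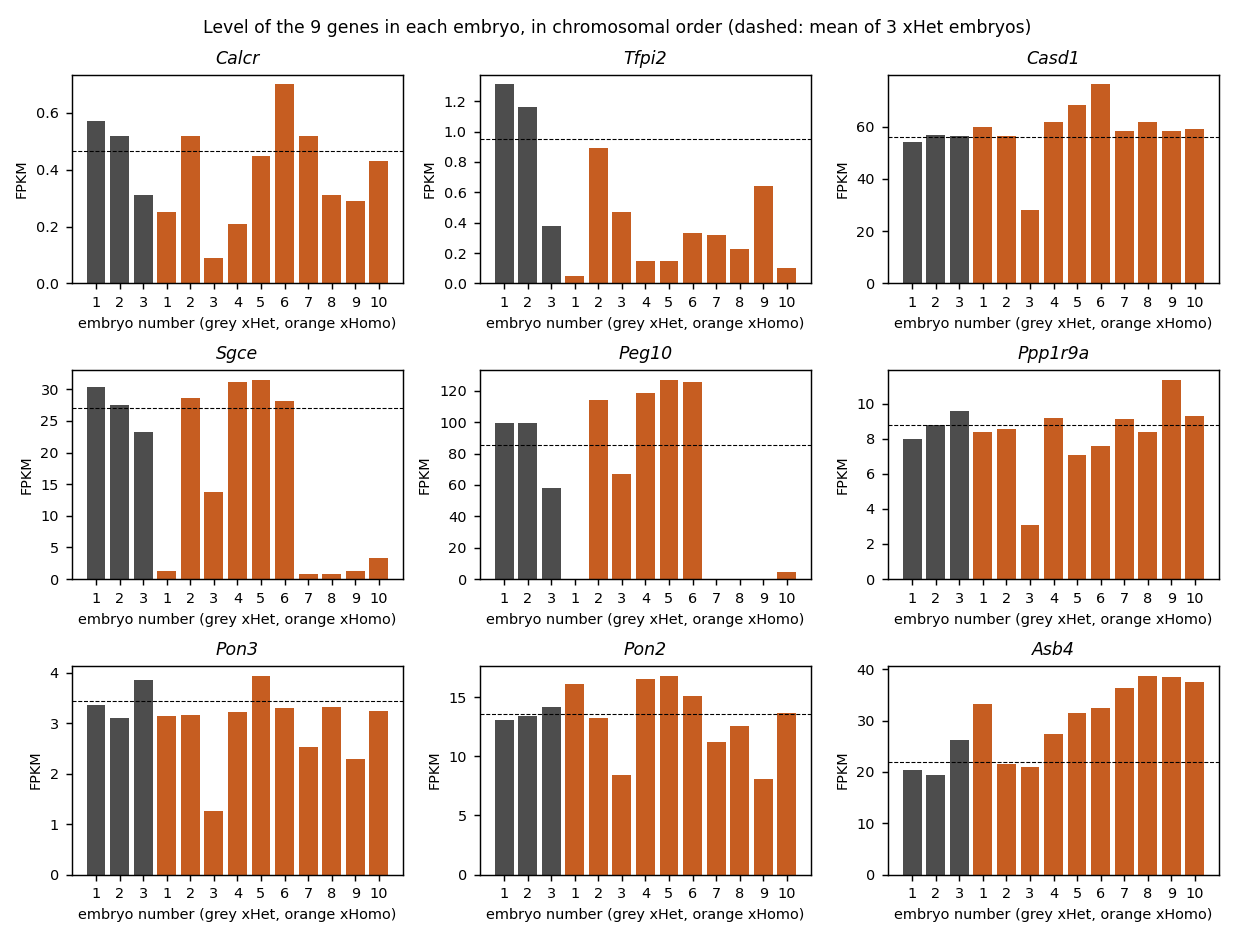
Bars give the FPKM of each of the 9 genes (panels in chromosomal order) in the 3 xHet (grey) and 10 xHomo (orange) embryos, on a linear axis from 0 whose range differs by panel; the dashed line is the xHet mean. Peg10 and Sgce are near the floor in the same 5 xHomo embryos, Casd1, Ppp1r9a and Pon3 are lowest in xHomo embryo 3, and Asb4 is at 33.2 FPKM or more in the 5 embryos where Peg10 is low.

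A fall of this size was compared with the rest of the table. Peg10 and Sgce were at least 2 log2 units below the xHet mean in 5 of 10 xHomo embryos, and 74 of the tested genes, or 0.580%, were so in at least 5. Of these 13 were low in exactly 5 embryos and 61 in more. At 1 log2 unit it was so for 0.988%, and 23.0% had 5 or more xHomo embryos below the lowest xHet embryo. Of the 74 genes, 63 were small RNA genes by name. The 11 others included Peg10, Sgce and the 4 Y-linked genes Ddx3y, Eif2s3y, Kdm5d and Uty. The Y-linked genes were low in xHomo embryos 2, 3, 7, 9 and 10, a different set from 1, 7, 8, 9 and 10 for Peg10 and Sgce. Xist, which coats the inactive X chromosome, stood at 0.10 and 0.07 FPKM in xHomo embryos 1 and 8 and 122, 159 and 137 FPKM in 7, 9 and 10. The low set therefore held embryos with and without Xist. All 3 xHet embryos had Xist at 0.05 to 0.08 FPKM and Ddx3y at 13.7 to 15.1 FPKM. Xist and the Y-linked genes were thus unbalanced between the groups, and the main limma comparison had no covariate for them.

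As group means the 9 genes showed no difference that passed. The comparison used limma on log2(FPKM+1), adjusted over all 12755 tested genes with a mean of at least 1 FPKM, in which 0.0235% of genes passed at an adjusted p under 0.05. Calcr and Tfpi2 were below that mean, and 0 of the other 7 genes passed, by limma or by an exact permutation test. The exact test left little room for a call, since it needed at least 892 genes at its smallest p of 0.0035 and 108 were there. The log2 difference of Peg10 was -2.76 (SE 1.77, 95% interval -6.56 to 1.04, limma adjusted p = 0.628), and that of Sgce -1.82 (SE 0.999, interval -3.96 to 0.32, limma adjusted p = 0.578). These intervals are wide because each gene was near 0 in some xHomo embryos and at or above the xHet level in others. Weighting each library by its noise in limma (array weights) called Peg10 (-3.86, adjusted p = 0.0303), Sgce (-2.44, adjusted p = 0.0223) and Asb4 (0.63, adjusted p = 0.00536). They were among 2779 of the 12755 tested genes called in that fit, where 36.8% had an unadjusted limma p under 0.05.

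The spread between embryos was compared as well, by an exact permutation test over the 286 splits of 13 embryos, two-sided. The mean distance from the group median, in log2 units, was larger among xHomo embryos by 2.87 for Peg10 (exact p = 0.0769, adjusted p = 0.609) and by 1.62 for Sgce (exact p = 0.0839, adjusted p = 0.609). Neither passed, and 0 genes of the table passed after adjustment. With a smallest p of 0.0035 an adjusted call needs at least 892 genes at that p, and 83 were there, so the design left little room for a call. Before adjustment 7.62% of genes had an exact p under 0.05, among the domain genes Pon2 (exact p = 0.0385). The spread was wider in xHomo embryos for 93.8% of all tested genes, so a wider spread by itself does not set the domain apart. The distance from a group's own median tends to be smaller with 3 embryos than with 10. That share therefore does not show that xHomo embryos vary more.

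Casd1, which encodes an enzyme that adds acetyl groups to sialic acids, is the next gene on the Sgce side, with 103.9 kb between it and the Peg10 start (chromosome 6, 4551066 to 4593381). Its level was 54.2 to 56.8 FPKM (xHet) and 56.5 to 76.1 FPKM in 9 xHomo embryos, with 28.2 FPKM in xHomo embryo 3. Levels of 59.8, 58.3, 61.9, 58.3 and 59.3 FPKM were found in xHomo embryos 1, 7, 8, 9 and 10. Casd1 thus stayed at or above the xHet level in each embryo that had lost Peg10 and Sgce. It was above the highest xHet embryo in 8 of 10 xHomo embryos, as were 15.3% of all tested genes. Its group difference was 0.04 (SE 0.20, limma adjusted p = 0.963), or 0.15 without xHomo embryo 3 (limma adjusted p = 0.405), and its sign turned under each of the 3 rescalings.

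Calcr, the calcitonin receptor gene (chromosome 6, 3635720 to 3714713), and Tfpi2, which encodes a secreted serine protease inhibitor (3912595 to 3918354), lie farthest out on that side and were barely expressed. Calcr ran from 0.31 to 0.57 FPKM (xHet) and from 0.09 to 0.70 FPKM (xHomo, median 0.37). Tfpi2 was 1.31, 1.16 and 0.38 FPKM across xHet embryos 1 to 3 and 0.05 to 0.89 FPKM across the xHomo embryos (median 0.275). It lay below the lowest xHet embryo in 7 of 10 xHomo embryos, among them 1, 4, 5 and 10 at 0.15 FPKM or less. At least 5 were below it for 23.0% of the 12755 tested genes, which do not include Tfpi2. With no filter on low values the log2 difference of Tfpi2 was -0.54 (SE 0.18, limma adjusted p = 0.522), with an unadjusted p of 0.0106 in limma and of 0.0175 in the exact permutation test. In that fit these were smaller than those of Asb4 (0.0193 and 0.0245), and 8.43% of 19526 genes had an unadjusted limma p under 0.05. Neither gene followed the set of embryos that lost Peg10.

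On the Peg10 side the nearest member is Ppp1r9a, 156 kb from the Peg10 start (chromosome 6, 4853320 to 5115661). It encodes neurabin, an actin-binding partner of protein phosphatase 1 in neurons. Its xHet levels were 7.99 to 9.57 FPKM, against 8.39, 9.13, 8.40, 11.3 and 9.28 FPKM in xHomo embryos 1, 7, 8, 9 and 10. The other xHomo embryos were at 7.09 to 9.18 FPKM, apart from 3.07 FPKM in embryo 3. Embryos with and without Peg10 therefore overlapped in this gene. The group difference was -0.13 (SE 0.23, limma adjusted p = 0.872), and -0.0066 without xHomo embryo 3 (limma adjusted p = 0.981).

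The paraoxonases Pon3 (5170852 to 5206233) and Pon2 (5214624 to 5248373), lactone-hydrolysing enzymes with antioxidant roles, follow on the minus strand. Pon3 levels were 3.09 to 3.85 FPKM (xHet) and 1.25 to 3.94 FPKM (xHomo), with 1.25 FPKM in embryo 3 and 2.29 FPKM in embryo 9 as the lowest. Pon2 levels were 13.1 to 14.2 FPKM (xHet) and 8.11 to 16.9 FPKM (xHomo), lowest in embryos 9 (8.11 FPKM) and 3 (8.47 FPKM). Both were lowest in the same 2 embryos, only one of which had lost Peg10. Their log2 differences were -0.20 (SE 0.18, limma adjusted p = 0.751) for Pon3 and -0.07 (SE 0.19, limma adjusted p = 0.913) for Pon2. Without xHomo embryo 3 they were -0.11 (limma adjusted p = 0.640) and -0.012 (limma adjusted p = 0.977), and without xHomo embryo 9 that of Pon2 was -0.0061. Pon1, the third gene of the family, did not exceed 0.37 FPKM in any embryo. The genes are close relatives, and reads shared between them could be split by the quantification.

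**Figure D2:**
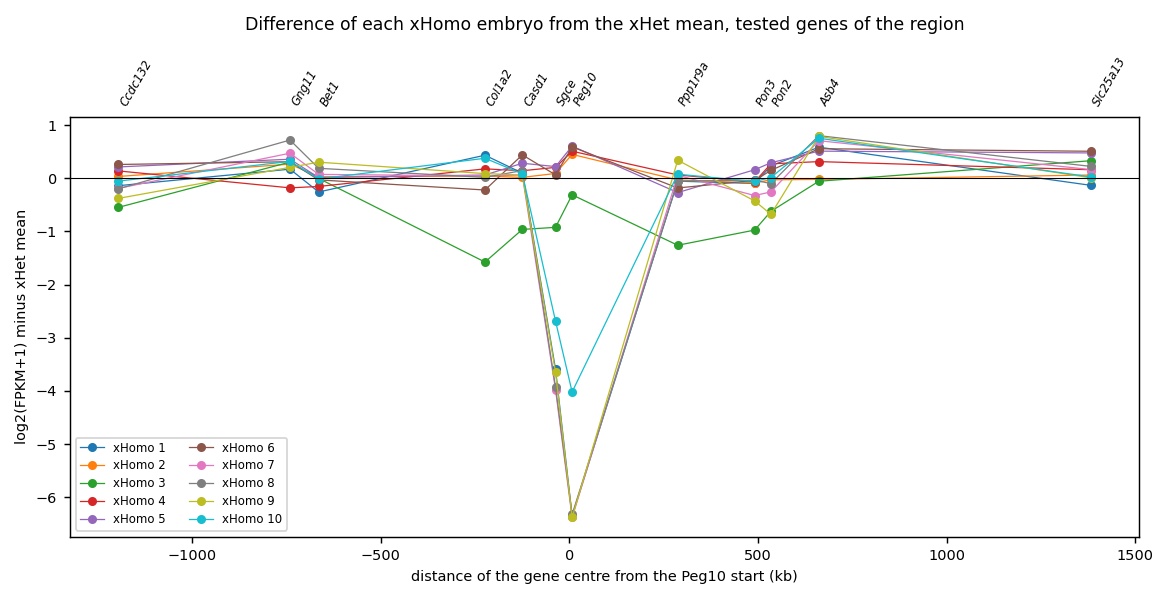
Each line is 1 xHomo embryo; the x axis is the distance of a gene's centre from the Peg10 start in kb, and the y axis log2(FPKM+1) minus the xHet mean, for the 7 members and 5 other genes of the region with a mean of at least 1 FPKM. In 5 embryos Sgce and Peg10 dip to between -2.69 and -6.38, while the genes on either side of them stay within 1 log2 unit of the xHet mean in those embryos.

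Among the tested genes of the region the dip in these 5 embryos covered these 2 alone. At a threshold of 1 log2 unit the domain genes gave 11 departures over the 10 xHomo embryos. Of all tested genes 1.76%, 2.12%, 2.30%, 4.56% and 1.85% departed in xHomo embryos 1, 7, 8, 9 and 10. In xHomo embryos 2, 3, 4, 5 and 6 it was 1.48%, 10.2%, 1.53%, 1.68% and 1.45%. Peg10 and Sgce made 5 each, and the remaining one was Ppp1r9a in xHomo embryo 3. With a pseudocount of 0.1 there were 20: Tfpi2, below the filter, added 7 (xHomo embryos 1, 4, 5, 6, 7, 8 and 10), and Calcr and Pon3 added 1 each in embryo 3. The shares above are for a pseudocount of 1 and genes that passed the filter. They are no background for the count of 20. Tfpi2 was at 5.26% and 10.5% of its xHet mean in xHomo embryos 1 and 10. Another 15 genes of chromosome 6 start within the span or 1 Mb of it, 5 of them with a mean of at least 1 FPKM (Ccdc132, Gng11, Bet1, Col1a2 and Slc25a13). None of these passed in limma, where the smallest unadjusted p was 0.0517. Without xHomo embryo 3 they ran from -0.38 to 0.72 around the xHet mean. With it the lowest was Col1a2, a collagen gene, at -1.58 (27.6 FPKM against 76.6 to 96.9 FPKM in xHet embryos).

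Asb4, at the far end of the region and 636 kb from the Peg10 start (chromosome 6, 5333386 to 5383021), went the other way. It encodes a SOCS-box adaptor of a ubiquitin ligase, expressed in embryonic blood vessels and placenta. Asb4 levels of xHet embryos 1 to 3 were 20.4, 19.4 and 26.2 FPKM. Those of xHomo embryos 1, 7, 8, 9 and 10 were 33.2, 36.3, 38.8, 38.4 and 37.5 FPKM, or 151% to 176% of the xHet mean. The remaining xHomo embryos, 2 to 6, had 21.5, 20.9, 27.4, 31.5 and 32.6 FPKM. The 5 xHomo embryos with the lowest Peg10 were thus the 5 with the highest Asb4, and this order held under each of the 3 rescalings. The margin was small, 33.2 FPKM in embryo 1 against 32.6 FPKM in embryo 6, and 4.62% of all tested genes had the same 5 embryos on top. Sgce had these 5 embryos as its lowest, as did 1.13% of all tested genes, a share that reached 5.21% after scaling to a common sum. The share with these 5 embryos on top was 2.11% with that scaling, 4.16% with median-of-ratios scaling and 3.69% with quantile normalization.

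**Figure D3:**
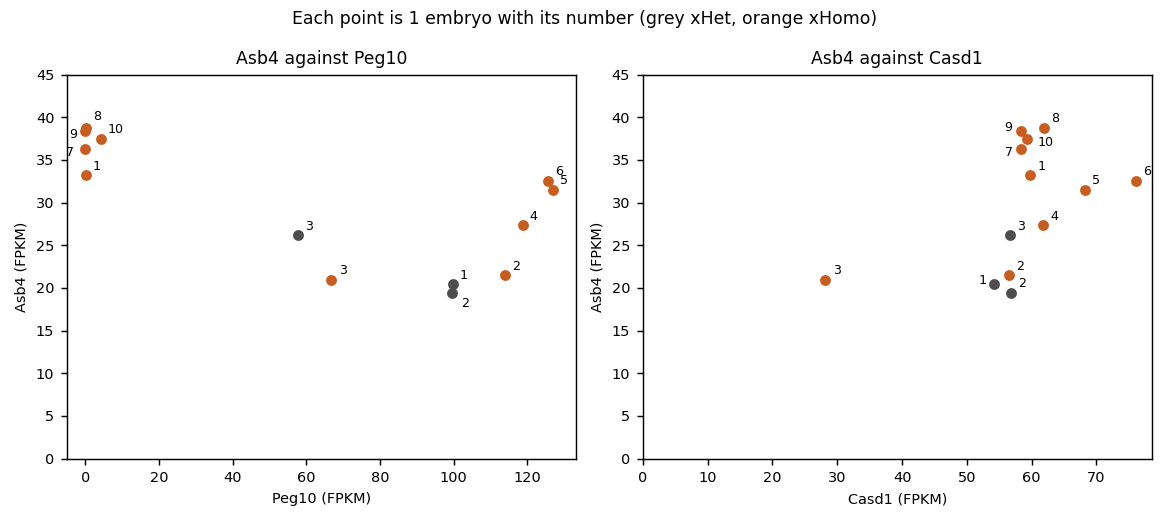
Each point is 1 embryo with its number (grey xHet, orange xHomo); the y axes give Asb4 and the x axes Peg10 (left) or Casd1 (right), all in FPKM on linear scales. The 5 embryos at the left edge of the Peg10 panel have Asb4 from 33.2 to 38.8 FPKM, while xHomo embryos 5 and 6, with Peg10 at 127 and 126 FPKM, reach 31.5 and 32.6 FPKM.

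Between the groups Asb4 stood at 22.0 ± 3.65 FPKM (SD, n = 3) and 31.8 ± 6.59 FPKM (SD, n = 10), with 8 of 10 xHomo embryos above the highest xHet embryo. At least 8 were above it for 15.3% of all tested genes. The log2 difference was 0.49 (SE 0.18, 95% interval 0.10 to 0.89, limma adjusted p = 0.498). Its unadjusted p of 0.0177 in limma and of 0.0245 in the exact permutation test made it the one with the smallest p by either test among the 7 genes that passed the filter, where 9.35% of all genes were under 0.05 in limma and 7.63% were also higher in xHomo embryos, as Asb4 was. Leaving out 1 embryo moved the difference between 0.41 and 0.62. Among embryos with Xist near 0 only, a choice made after seeing the data, it was 0.55 (limma adjusted p = 0.122). Asb4 was at 27.4 to 38.8 FPKM in the 5 xHomo embryos there. In that fit 19.2% of all tested genes had an unadjusted limma p under 0.05. Relative to Casd1 in the same embryo the order differed in xHomo embryo 3: the ratio was 0.556 to 0.658 in the 5 embryos with low Peg10 and 0.743 in xHomo embryo 3, the highest of all. In embryo 3 Casd1 was unusually low at 28.2 FPKM, and Asb4 was 20.95 FPKM, the lowest xHomo value. In each of the remaining embryos of both groups the ratio was at most 0.462.

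Levels of other cell types were set beside Asb4. The summed level of 7 endothelial markers, none of them near 0, was 159 to 172 FPKM (xHet) and, leaving aside xHomo embryo 3 (61.3 FPKM), 130 to 165 FPKM (xHomo). In xHomo embryos 7 to 10 it was 132 to 135 FPKM, below the xHet range, while Asb4 was above it. The order was not the same elsewhere: xHomo embryo 1, with high Asb4, had 161 FPKM, and xHomo embryos 5 and 6, with Peg10 kept, had 145 and 130 FPKM. The summed level of 4 heart markers was 281 to 286 FPKM (xHet), and it moved with Asb4 in xHomo embryos 7, 8, 9 and 10 at 389, 404, 554 and 420 FPKM. In xHomo embryo 1 it was 296 FPKM, and in 2 to 6 it was 354, 232, 275, 289 and 282 FPKM. As group means 3 of the 4 heart genes were higher in xHomo embryos. The other 1, Myh6, was lower (log2 difference -0.19), so the sum does not stand for each gene. Hand1, listed as a trophoblast marker and also a heart gene, averaged 9.03 ± 0.190 FPKM (xHet, SD, n = 3) and 12.6 ± 1.59 FPKM (xHomo, SD, n = 10; limma adjusted p = 0.372). It was named after its values were seen, and the other 2 tested trophoblast markers were below 0, Prl3b1 at -0.50 and Plac1 at -0.13 on the log2 scale. The part of these cell types in the Asb4 values was not tested.

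Upstream sequences were taken from RefSeq promoter windows on GRCm38.p6, from the 250 bases before each annotated start. Entries were matched for 7 of 9 genes, 13 windows in all; Peg10 and Sgce had no entry. Asb4 is printed as the member that was high where Peg10 was low, and Ppp1r9a as the nearest member on the same side of Peg10. CG dinucleotides, the sites of DNA methylation in mammals, are in capitals. For Asb4 the window is that of the outermost start (chr6:5383136-5383385, plus strand) and for Ppp1r9a the one richest in CG (chr6:4903061-4903310, plus strand).
Asb4: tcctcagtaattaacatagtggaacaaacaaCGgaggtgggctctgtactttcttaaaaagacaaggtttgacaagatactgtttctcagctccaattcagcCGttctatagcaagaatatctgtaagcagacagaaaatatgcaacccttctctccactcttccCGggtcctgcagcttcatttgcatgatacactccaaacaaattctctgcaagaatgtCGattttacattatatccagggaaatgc
Ppp1r9a: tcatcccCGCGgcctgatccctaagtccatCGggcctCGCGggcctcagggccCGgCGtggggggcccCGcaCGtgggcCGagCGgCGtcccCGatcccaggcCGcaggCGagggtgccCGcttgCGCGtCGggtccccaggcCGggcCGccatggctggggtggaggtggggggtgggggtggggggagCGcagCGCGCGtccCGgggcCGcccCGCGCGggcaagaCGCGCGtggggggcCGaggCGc
The Asb4 window holds 4 CG dinucleotides, against a median of 6 over 32851 windows, and the Ppp1r9a window 35, more than 97.0% of windows. These 2 windows were chosen by different rules, and the second window of each gene holds 8, so they give no contrast in CG content between the genes. Of the others, those with the most CG were 24 for both Calcr and Pon2, 17 for Casd1, 11 for Tfpi2 and 6 for Pon3. The hexamer TGCCGC, known as the motif of the imprint-keeping protein ZFP57, was found on either strand in 1 window each of Calcr, Casd1 and Pon3 and in 8.68% of all windows. No overlap with another motif was searched. A match is a description of the letters and not a site, and windows without one say nothing about the protein.

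Relatives and partners of the members were described from lists. Of 11 genes derived from the same kind of retrotransposon gag gene as Peg10, 6 were tested and 0 passed in limma, 3 of them above and 3 below 0, with a median log2 difference of 0.10 against 0.05 over all tested genes. Cxx1b averaged 23.1 ± 1.92 FPKM (xHet, SD, n = 3) and 27.6 ± 2.64 FPKM (xHomo, SD, n = 10; limma adjusted p = 0.509). None of these relatives, at 0.15 FPKM or less for Zcchc5 and up to 31.1 FPKM for Cxx1b, reached the level that Peg10 had in xHet embryos.

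Of 14 genes of the sarcoglycan and dystrophin complex, in which epsilon-sarcoglycan takes part, 8 were tested and 0 passed in limma, with 5 above and 3 below 0 and a median of 0.07. Sgcb, beta-sarcoglycan, stood at 7.82 ± 0.457 and 7.82 ± 1.81 FPKM, and Dag1, dystroglycan, at 39.4 ± 1.39 and 35.6 ± 9.52 FPKM. Of 18 ASB family genes 8 were tested and Asb4 had the smallest p, with 4 above and 4 below 0 and a median of 0.0094. The neurabin relative Ppp1r9b and 3 catalytic subunits of protein phosphatase 1 were all above 0 (median 0.11), and 0 passed in limma. Of these Ppp1cb stood at 55.4 ± 3.77 and 66.6 ± 7.93 FPKM (limma adjusted p = 0.521).

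Likeness to Peg10 over the 13 embryos was measured for 4107 genes with a range of at least 1 log2 unit. Each gene was scaled to run from 0 to 1, and the mean absolute difference to Peg10 was taken, so that 0 is an identical pattern. Asb4 had a smaller range and was not among them. Sgce was nearest, at 0.038. The next were Arrdc4 at 0.134, Txnip at 0.165, Pinx1 at 0.179 and Mfsd7b at 0.181, so the gap after Sgce was wide. For Sgce the 5 nearest were Peg10, Arrdc4, Txnip, C1qtnf3 (0.163) and Mfsd7b (0.176). Sgce stayed the nearest to Peg10 over xHomo embryos alone and with a pseudocount of 0.1.

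Arrdc4 and Txnip encode arrestin-like proteins that restrain glucose uptake. Arrdc4 levels were 4.47 to 5.72 FPKM (xHet), 4.47 to 4.97 FPKM in xHomo embryos 2 to 6, and 2.54, 0.97, 1.93, 1.55 and 1.39 FPKM in xHomo embryos 1, 7, 8, 9 and 10. Arrdc4, like Txnip, was named for its likeness to Peg10, so its low values in the last 5 largely follow from that choice. Txnip levels were 9.97 to 14.6 FPKM (xHet), with 8.14, 5.28, 5.89, 9.15 and 6.98 FPKM in the same 5 xHomo embryos. As group means neither passed (limma adjusted p = 0.552 for Arrdc4 and 0.797 for Txnip).

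Genes with the opposite pattern, a question added after seeing the data, were less near than Sgce and nearer than Arrdc4. The 5 closest to a mirror image of Peg10 were Tpi1 (0.105), Bnip3 (0.106), Egln1 (0.109), Upp1 (0.113) and Pgk1 (0.124). Tpi1 and Pgk1 encode glycolytic enzymes, Bnip3 a mitochondrial protein induced by low oxygen, Egln1 an oxygen-sensing prolyl hydroxylase, and Upp1 a uridine phosphorylase. Bnip3 levels of xHet embryos 1 to 3 were 29.2, 28.6 and 59.9 FPKM, against 86.9, 185, 206, 239 and 146 FPKM in xHomo embryos 1, 7, 8, 9 and 10. In xHomo embryos 2 to 6 they were 25 to 39.3 FPKM. The xHet embryo with the highest Bnip3, number 3, was also the one with the lowest Peg10 and the highest Asb4 of its group. Bnip3 was picked as a mirror image of Peg10 over the embryos of both groups, this embryo included. Its high value there therefore largely follows from that choice. The match with Asb4 rests on this single xHet embryo and was not tested.

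Egln1 levels were 16.9 to 21.8 FPKM (xHet), 16.5 to 19.5 FPKM in xHomo embryos 2 to 6, and 29.1, 47.9, 57.1, 69.9 and 39.4 FPKM in the embryos with low Peg10. Pgk1 was 621, 889, 972, 1160 and 809 FPKM in those 5 embryos and at most 470 FPKM in any other. The 5 mirror genes were named for this pattern, so their high values in those embryos largely follow from the choice. As group means none of the 5 mirror genes passed (limma adjusted p = 0.617 to 0.769). Asb4 was high in the same embryos as these genes, and the part of either in the other was not tested.

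**Figure D4:**
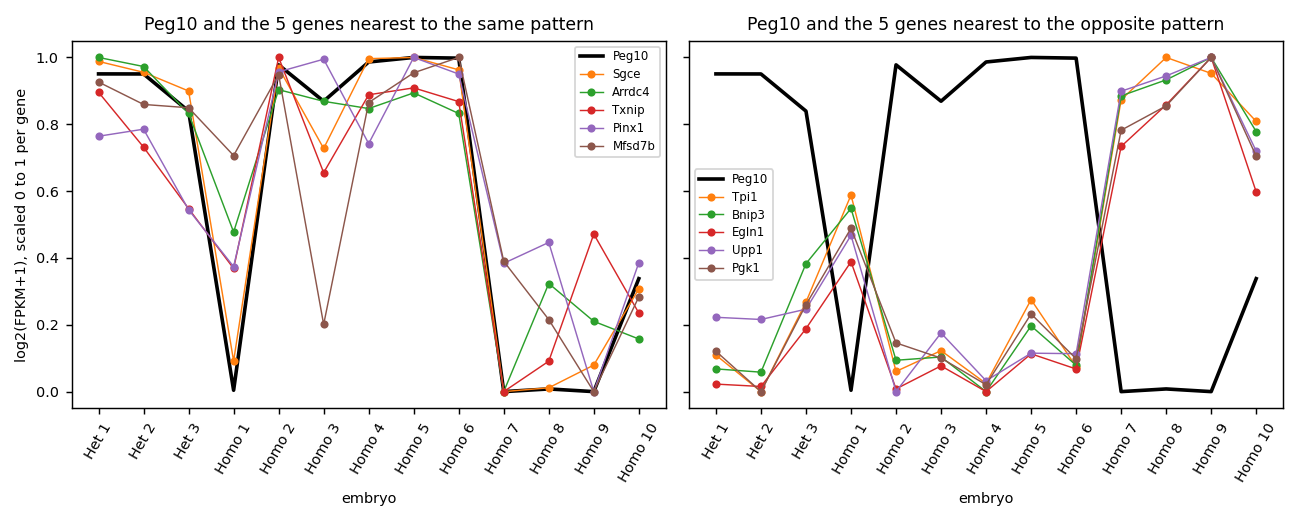
Lines give log2(FPKM+1) scaled to 0 to 1 by each gene's range over 13 embryos; the left panel shows Peg10 (black) with the 5 genes nearest to its pattern and the right panel with the 5 nearest to its mirror image. Sgce follows Peg10 at a distance of 0.038, while Arrdc4 (0.134) and the mirror genes Tpi1 (0.105) and Bnip3 (0.106) move less far in xHomo embryo 1 than in 7, 8, 9 and 10.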

How the data were processed

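RNA of 13 embryos was sequenced after poly(A) isolation with a directional kit, per the labels' protocols. The FPKM values, 1 per gene and embryo in a single table with mm9 loci, are as the authors deposited them. The submitters' processing notes name bcl2fastq 1.8.2, TopHat and Cufflinks. The sources used here give no other version, annotation or strand setting. FPKM is relative to all mapped fragments, so abundant RNAs can shift all others, and differences on log2(FPKM+1) understate changes of low genes. Depth is unknown, so no counting intervals are given.

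Genes with a mean of at least 1 FPKM, 12755 in all, were compared two-sided by limma 3.58.1 (R 4.3.3) with no covariate and a mean-variance trend and Benjamini-Hochberg adjustment over all of them at 0.05. Means and spreads were also compared by exact permutation over 286 splits, whose smallest p is 0.0035. In simulated data with 12755 genes and these group sizes limma recovered 15 of 50 planted genes for a log2 change of 0.5, 43 for 1, 50 for 2 and 49 for 3. The planted change was the same in every xHomo embryo. Peg10 and Sgce were near 0 in only some of them, so these counts do not carry over to the 2 genes. Python 3.11.15 (numpy 2.4.6, pandas 2.3.3) and matplotlib 3.10.9 were used. In the tests embryos were grouped by the labels, with an alternative limited to embryos with Xist near 0. The low set was named from its Peg10 and Sgce levels and served description only. Named were all 9 genes, their neighbours within 1 Mb, the 5 genes most like Peg10 and Sgce, and up to 3 genes per list by smallest p; Sgcb, Dag1, Zcchc5, Hand1, Prl3b1 and Plac1 were chosen after their values were seen. A gene that this rule names is not reported here. The genes and lists were chosen with earlier results of these data known. Alternatives were other pseudocounts, filters, scalings, models and leaving out each embryo.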

Additional observations from a re-analysis of the deposited data

Results flagged for a closer look

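Among the 10 xHomo embryos, 3 of the 9 genes had a single embryo far from the others on the log2 scale, each time the lowest one, xHomo embryo 3. For Casd1 the gap to the next embryo was 0.698 of the whole range (28.2 against 56.5 FPKM), for Ppp1r9a 0.619 (3.07 against 7.09 FPKM) and for Pon3 0.483 (1.25 against 2.29 FPKM), where 0.466 is the limit for 10 samples. Chance passes that limit in about 1 in 20 groups. In the same embryo 9.71% of all tested genes were at least 1 log2 unit below the xHet mean and the median gene was at -0.27. Its part in these 3 values was not tested.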

How the results depend on the processing

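Over 24 alternatives the limma or exact difference of Peg10 stayed between -3.999 and -1.80, that of Sgce between -2.44 and -1.18 and that of Asb4 between 0.17 and 0.63, without a change of sign. Domain genes called numbered 0 in each but array weights, which called 3, and 0 to 0 on leaving out each embryo. Ppp1r9a and Pon3 stayed below 0 in all 24. Casd1, near 0, turned to -0.041 with a common sum, -0.0038 with median-of-ratios scaling, -0.048 with quantile normalization, -0.0085 without xHomo embryo 6 and -0.28 with the replicate block. Pon2 turned to 0.15 with Xist as a covariate and 0.17 in embryos with Xist near 0, added after seeing the data; the cause was not tested.

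Over the whole table limma called 3 genes, against 5 with quantile normalization, 11 with no filter, 1 with Xist as a covariate, 2779 with array weights, 8 in embryos with Xist near 0, 1 with the replicate block, 0 with the exact permutation test of means (1196 at an unadjusted p under 0.05) and 1 to 11 on leaving out each embryo. The block pairs embryos 1 to 3 by number only: deviations of same-numbered embryos correlated at -0.065, -0.040 and -0.038, and 0 of 3 xHet embryos correlated best with their own number. The spread test found 972 genes at an unadjusted p under 0.05, 1668 with a common sum and 242 to 1039 on leaving out each embryo, where fewer splits remain; after adjustment it found 0 in each setting. Departures of domain genes numbered 11, and 20 with a pseudocount of 0.1, which widens differences at low levels. No share over all genes is given at that pseudocount, so the 20 has no background. Leaving out each embryo gave 9 to 14.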
